A study of Homo sapiens with 9 samples.

Results

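The 10 genes described here are endoplasmic reticulum (ER) chaperones and folding enzymes together with XBP1, a transcription factor of the unfolded protein response. They were taken by gene symbol from a table of 22290 genes, and all 10 had a value in each of the 9 libraries. RNA was sequenced from cells labelled as IMR-32, an established human neuroblastoma line, in 3 groups of 3 libraries. The groups were parental (wild-type) cells, cells labelled TRAP-1 knockdown (KD) and cells labelled TRAP-1 overexpression (OE), and the comparison asks how the ER folding genes stood in each engineered line against the parental cells. The KD and OE cells had been made before by the same laboratory, and how the constructs were delivered, or whether each line was a single clone, is not given in the sources used here. RNA was isolated in triplicate from each kind of cell. Nothing says that the triplicates came from separate cultures, so the p-values measure the spread between these libraries, which may be technical.

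Values are regularized log2 expression values (rlog), for which the authors adjusted for library size and drew each gene's values toward its own mean. A difference of rlog therefore understates the change of a weakly expressed gene, and the depth reached in each library cannot be read from these values. Differences between groups were tested with limma, and a gene was called at an adjusted p under 0.05 over all 22290 genes. TRAP1, the gene targeted in both engineered lines, had rlog values of 10.67, 10.66 and 10.65 in the parental libraries, 10.79, 10.79 and 10.83 in those labelled KD and 10.67, 10.63 and 10.74 in those labelled OE. All 3 libraries labelled KD thus lay above the parental range, whereas the OE values overlapped it. The difference from parental was 0.14 for KD (SE 0.0252, adjusted p = 1.76e-05) and 0.018 for OE (SE 0.0252, adjusted p = 0.643), and 28.5% of the TRAP1 exonic length overlaps other genes. With the median of well-expressed genes in its 20-Mb block removed (those whose rlog averaged 8 or more over the 9 libraries), a correction chosen after seeing the data and described below, the OE difference was 0.064 and called (adjusted p = 0.0347), whereas with the median of all genes there removed it was 0.036 and not called (adjusted p = 0.282). Since TRAP1 RNA was not lower under the KD label, and was called higher under the OE label only after that correction, KD and OE name labels of libraries throughout, and no direction below is tied to the TRAP1 level.

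The labelled cell type was checked against markers of sympathoadrenal neuroblastoma, of which 10 of 12 had values. MYCN, a gene known to be amplified in IMR-32, had a mean rlog of 2.52 in the parental libraries, and PHOX2A and TH had 1.33 and 2.84, in the lowest 9.14%, 18.9% and 20.4% of genes for PHOX2A, MYCN and TH. ISL1 (9.37), GATA2 (9.27), GATA3 (7.25), HAND2 (6.36) and CHGB (5.87) lay above between 42.5% and 63.8% of genes, and the linear levels of its 10 genes summed to between 1462 and 1629 per library. The 10 mesenchymal markers summed to between 107990 and 123771, led by VIM with a parental mean of 15.72, and COL1A2 and COL3A1 were near the floor with 1.35 and 1.16. MYCN, PHOX2A and TH were thus near the floor in all 3 groups while other markers of the list were not, and the cells are called here by their labels only. The paper reports that the line had been authenticated. Of the 10 sympathoadrenal markers 2 were called higher and 5 lower in KD, and 0 higher and 2 lower in OE. Of the 10 mesenchymal markers 4 were called higher and 2 lower in KD, and 5 higher and 1 lower in OE. Beside these counts, 26.9% of all genes were called higher and 26.9% lower in KD, and 16.9% and 18.0% in OE. Among mesenchymal markers PRRX1 rose by 1.29 in KD and by 0.69 in OE, FN1 was lower by -0.96 in KD and higher by 0.55 in OE, and the part of such a difference in the ER results was not tested.

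Proteins of the secretory pathway enter the ER unfolded and are bound there by HSPA5 (BiP), an HSP70 chaperone, by the lectin chaperones calnexin and calreticulin, and by protein disulfide isomerases that form and shuffle disulfide bonds. When unfolded proteins accumulate, the sensors IRE1, PERK and ATF6 start the unfolded protein response, and IRE1 splices the XBP1 mRNA into the form that encodes an active factor. Many genes of ER chaperones carry an ER stress response element in their promoters, which ATF6 and XBP1 recognise together with the CCAAT-binding factor NF-Y. Cytosolic heat shock genes are instead driven mainly by HSF1.

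**Figure D1:**
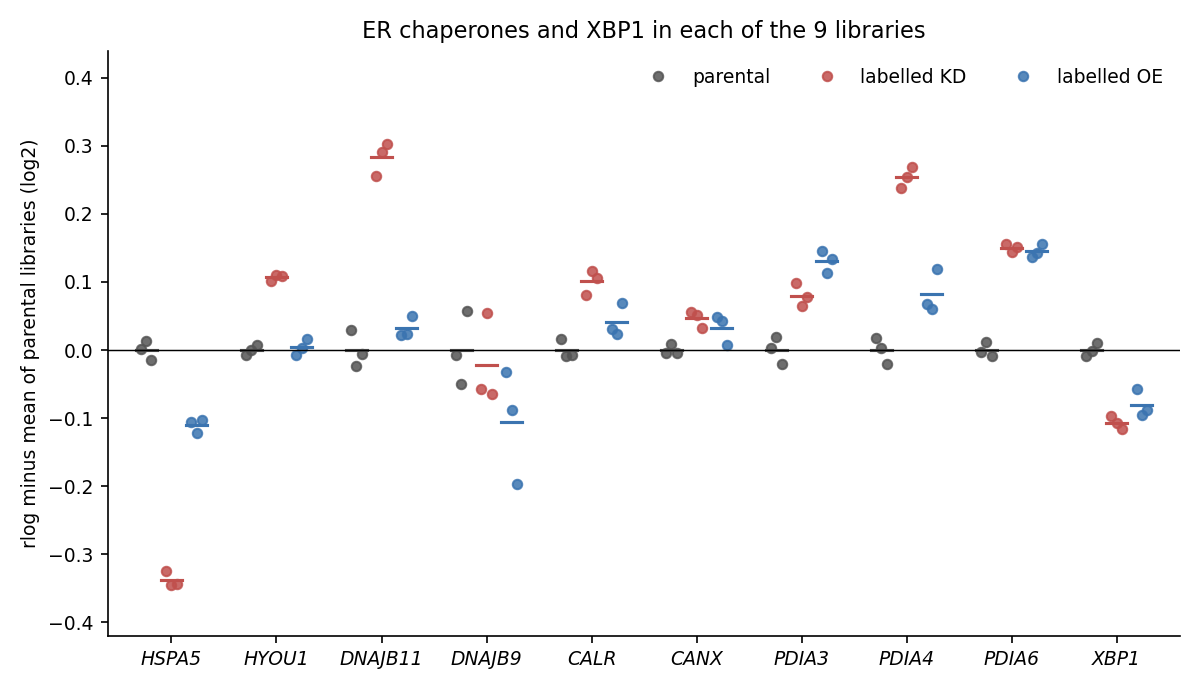
Values of the 10 members in each of the 9 libraries, as rlog minus the mean of the 3 parental libraries (vertical axis, log2). Points are libraries and bars are group means. HSPA5 and XBP1 lie below parental in both engineered groups, PDIA3, PDIA4 and PDIA6 lie above in both, and DNAJB9 overlaps.

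HSPA5 (ENSG00000044574, chr9:125234853-125241382 on the minus strand of GRCh38) was the member with the largest decrease. Its rlog was 15.38, 15.39 and 15.36 in the parental libraries, 15.05, 15.03 and 15.03 in those labelled KD and 15.27, 15.25 and 15.27 in those labelled OE. The 3 groups did not overlap, with KD lowest, OE in between and parental highest. The KD libraries were lower than parental by -0.34 (SE 0.0100, 95% interval -0.36 to -0.32, adjusted p = 1.18e-23), and the OE libraries by -0.11 (adjusted p = 1.2e-10). On the linear scale of the rlog values HSPA5 fell by 20.9% in KD and fell by 7.36% in OE. OE was above KD by 0.23 (adjusted p = 6.83e-19). None of the HSPA5 exonic length overlaps another annotated gene, and 1 processed copy of it is annotated elsewhere in the genome.

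The genes beside HSPA5 on chromosome 9 moved as it did. Within 10 Mb there were 118 other well-expressed genes, and their median difference was -0.32 in KD and -0.078 in OE, beside -0.34 and -0.11 for HSPA5 itself. In KD 93.2% of these neighbours were below 0 and 56 of them had a lower difference than HSPA5, and in OE 79.7% were below 0 and 47 were lower than HSPA5. With the median of all other genes in each 20-Mb block removed, HSPA5 was still lower, by -0.11 in KD (adjusted p = 5.14e-11) and by -0.056 in OE (adjusted p = 3.51e-05). When that median was taken only over well-expressed genes, a correction chosen after seeing the data, the differences were 0.011 (adjusted p = 0.381) and -0.0070 (adjusted p = 0.653), so neither call held and the KD value changed sign. OE minus KD was then -0.018 and not called either (adjusted p = 0.159). Over its 17 alternatives the adjusted p of HSPA5 in KD ran from 1.65e-26 to 0.381, and only this correction ended the call. The median of all genes includes weakly expressed genes, whose differences rlog understates, so it may understate the shift of a block. This limit holds for every value given with that median removed. Among its well-expressed neighbours HSPA5 had 56 lower and 62 higher in KD, and 47 lower and 71 higher in OE. Whether HSPA5 differed apart from its chromosomal surroundings therefore depended on which neighbours were used. The calls kept with the median of all genes removed do not settle this.

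**Figure D2:**
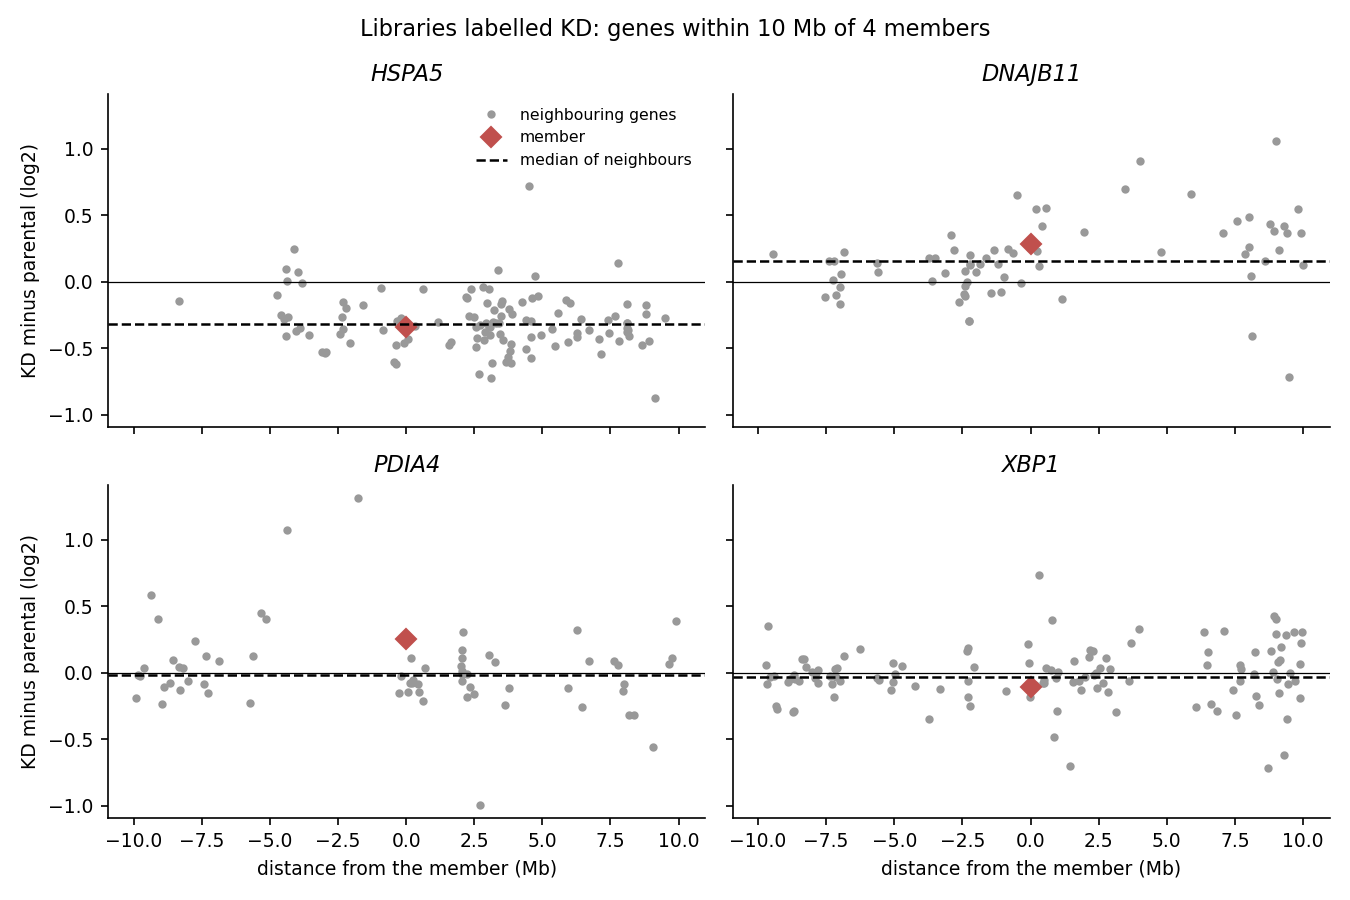
Differences between the libraries labelled KD and parental (vertical axis, rlog, log2) for genes averaging 8 or more within 10 Mb of 4 members, by distance in Mb (horizontal axis). The diamond is the member and the dashed line the median of its neighbours. HSPA5 lies on its neighbours' median of -0.32, DNAJB11 above a median of 0.16, and PDIA4 above and XBP1 below medians close to 0.

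The promoter table of RefSeq (build GRCh38.p14) held 9 of the 10 members, and PDIA3 was not among them. The letters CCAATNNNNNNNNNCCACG, the exact form of the ER stress response element, were searched on both strands in the 250 bases before the start nearest to that of the canonical transcript. They occurred in 5 of the 9 members, namely HSPA5, CALR, CANX, PDIA6 and XBP1, and in 23 of 27305 promoters of all genes (0.0842%). HYOU1 held the related ER stress response element II at 2 places, a sequence found in 15 of all promoters (0.0549%), and TGACGTGG, the unfolded protein response element, which 0.663% of all promoters hold. In HYOU1 the latter overlaps the distal copy of the former. All 9 held at least 1 CCAAT, as did 33.2% of all promoters, and the heat shock element GAANNTTCNNGAA (0.454% of all promoters) was in none of the 9. The windows of 6 members are shown because they carry these elements while their transcripts moved in different directions, with the matched letters in capitals. Each runs 5′ to 3′ along the strand of its gene and ends at the base before the start. They are HSPA5 (chr9:125241344-125241593, minus strand), XBP1 (chr22:28800570-28800819, minus), PDIA6 (chr2:10812786-10813035, minus), CALR (chr19:12938359-12938608, plus), CANX (chr5:179698717-179698966, plus) and HYOU1 (chr11:119057206-119057455, minus).
HSPA5: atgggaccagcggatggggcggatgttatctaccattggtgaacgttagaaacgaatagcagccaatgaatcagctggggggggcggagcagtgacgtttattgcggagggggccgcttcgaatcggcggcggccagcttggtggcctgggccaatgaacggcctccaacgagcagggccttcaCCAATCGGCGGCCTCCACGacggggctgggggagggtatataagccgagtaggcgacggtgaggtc
XBP1: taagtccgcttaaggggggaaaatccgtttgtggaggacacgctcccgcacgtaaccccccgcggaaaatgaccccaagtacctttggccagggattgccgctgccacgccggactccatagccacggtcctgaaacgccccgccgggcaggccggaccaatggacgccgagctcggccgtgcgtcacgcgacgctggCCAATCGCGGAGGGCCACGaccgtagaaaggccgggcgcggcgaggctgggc
PDIA6: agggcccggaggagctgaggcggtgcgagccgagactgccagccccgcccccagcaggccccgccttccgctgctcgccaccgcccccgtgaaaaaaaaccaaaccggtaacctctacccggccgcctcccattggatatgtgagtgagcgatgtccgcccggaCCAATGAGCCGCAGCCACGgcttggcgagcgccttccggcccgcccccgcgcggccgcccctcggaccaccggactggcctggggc
CALR: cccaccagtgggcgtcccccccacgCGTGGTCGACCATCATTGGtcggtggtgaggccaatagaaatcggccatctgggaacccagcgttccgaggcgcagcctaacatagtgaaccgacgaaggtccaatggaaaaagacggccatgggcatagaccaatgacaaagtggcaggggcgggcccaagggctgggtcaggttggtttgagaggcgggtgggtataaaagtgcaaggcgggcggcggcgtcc
CANX: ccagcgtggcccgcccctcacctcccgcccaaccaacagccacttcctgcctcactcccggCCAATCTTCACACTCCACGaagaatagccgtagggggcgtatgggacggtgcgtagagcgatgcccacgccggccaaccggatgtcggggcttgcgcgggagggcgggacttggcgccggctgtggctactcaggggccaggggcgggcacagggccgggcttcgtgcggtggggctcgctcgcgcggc
HYOU1: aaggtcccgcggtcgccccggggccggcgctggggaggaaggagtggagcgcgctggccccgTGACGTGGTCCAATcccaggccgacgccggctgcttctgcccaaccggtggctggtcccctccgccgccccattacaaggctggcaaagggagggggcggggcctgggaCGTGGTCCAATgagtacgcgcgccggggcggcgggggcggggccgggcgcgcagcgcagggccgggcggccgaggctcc

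The element lies between positions -66 and -48 before the start of HSPA5, -52 and -34 of XBP1 and -86 and -68 of PDIA6. It is farther away in CANX, between -189 and -171, and in CALR, between -225 and -207 and on the opposite strand. The pair of matches in HYOU1 begins at -185 and at -79. HSP90B1, the ER HSP90, held the exact element at 2 places, beginning at -194 and -89. Of the 22 cytosolic heat shock genes with a promoter in the table, 0 held any of the 3 ER elements and 4 (HSPA8, HSP90AA1, DNAJB6 and CHORDC1) held the heat shock element. Of 28 other listed ER folding genes there, 3 (HSP90B1, ERO1B and CRELD2) held the exact element and 2 (PRKCSH and SERPINH1) the heat shock element. The exact element was in 0 of 20 genes of unfolded protein response signalling, 0 of 18 of ER-associated degradation and 0 of 15 of ER translocation. Among these lists the ER stress response element II was in SDF2L1 and HERPUD1, and the unfolded protein response element in DNAJC10, VCP, UBE2J1, SEC62 and SSR4. A match describes letters in the window and is not evidence that a factor was bound in these cells. Only exact letters in these windows were searched, so a missing match does not show that a gene lacks such an element.

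**Figure D3:**
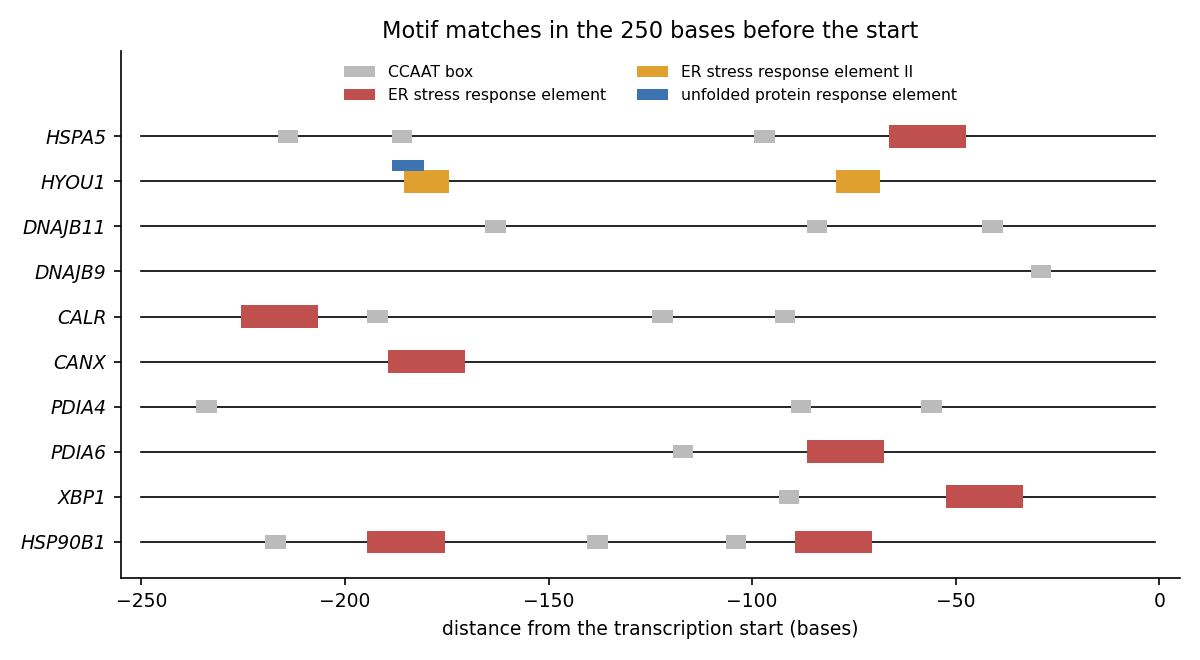
Positions of motif matches on either strand in the 250 bases before the transcription start (horizontal axis, bases) of 9 members and HSP90B1. Red is the exact ER stress response element, orange its second form, blue the unfolded protein response element and grey other CCAAT sequences. HSPA5, XBP1, PDIA6 and HSP90B1 carry the exact element within 100 bases of the start.

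HYOU1 and the J-domain proteins DNAJB11 and DNAJB9 work with HSPA5, HYOU1 as a nucleotide exchange factor and the others as co-chaperones that stimulate its ATPase. HYOU1 (ENSG00000149428) had rlog values of 13.59, 13.60 and 13.61 in the parental libraries, 13.70, 13.71 and 13.71 in KD and 13.59, 13.60 and 13.61 in OE. All KD values were above the parental range and the OE values overlapped it. HYOU1 was higher in KD by 0.11 (SE 0.0128, adjusted p = 1.27e-08), and its difference in OE was 0.0043 (95% interval -0.022 to 0.030, adjusted p = 0.842). DNAJB11 (ENSG00000090520) stood at 10.21, 10.16 and 10.18 in parental, 10.44, 10.47 and 10.49 in KD and 10.21, 10.21 and 10.23 in OE. It had the largest increase of the members in KD, 0.28 (SE 0.0251, adjusted p = 1.71e-11), while OE overlapped parental with a difference of 0.032 (adjusted p = 0.367).

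DNAJB11 lies on chromosome 3 among genes that were also higher in KD, since 76.1% of its 71 neighbours were above 0 with a median of 0.16. Its KD difference was still called with the block median of all genes removed (0.20, adjusted p = 5.43e-08). As for HSPA5, the median of all genes may understate the block shift. With that of well-expressed genes removed, as chosen after seeing the data, the difference fell to 0.051 and was no longer called (adjusted p = 0.0964, against 3.26e-12 as the lowest over its alternatives). Other genes overlap 14.2% of the DNAJB11 exonic length. DNAJB9 (ENSG00000128590), which is strongly induced through XBP1 in the unfolded protein response, did not follow these partners. Its values were 9.08, 9.03 and 9.14 in parental, 9.03, 9.14 and 9.02 in KD and 9.05, 8.99 and 8.89 in OE, so that all groups overlapped. The KD difference was -0.023 (95% interval -0.10 to 0.057, adjusted p = 0.662). In OE it was lower by -0.11 (adjusted p = 0.0341), and this call was lost without PAR replicate 1 (-0.11, adjusted p = 0.0657), PAR replicate 3 (-0.077, adjusted p = 0.191), OE replicate 2 (-0.11, adjusted p = 0.0540) or OE replicate 3 (-0.060, adjusted p = 0.277) and without the variance trend of limma (adjusted p = 0.123), within a range of 0.00750 to 0.277 over its alternatives.

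Calreticulin and calnexin hold newly made glycoproteins through their sugar chains. CALR (ENSG00000179218, chromosome 19) had values of 15.20, 15.18 and 15.18 in parental, 15.27, 15.31 and 15.29 in KD and 15.22, 15.21 and 15.26 in OE. KD lay above OE and OE above parental without overlap. CALR rose by 0.10 in KD (SE 0.0115, adjusted p = 3.97e-09) and by 0.041 in OE (adjusted p = 0.00462), and OE was below KD by -0.060 (adjusted p = 4.82e-05). CANX (ENSG00000127022, chromosome 5) had 15.12, 15.14 and 15.12 in parental, 15.18, 15.18 and 15.16 in KD and 15.18, 15.17 and 15.13 in OE. Its KD values were all above parental, by 0.046 (SE 0.0107, adjusted p = 4.18e-04), whereas OE replicate 3 fell within the parental range and the OE difference was 0.033 (adjusted p = 0.0161). These small OE increases depended on the scaling, since after quantile normalization the OE difference was -0.0019 for CALR (adjusted p = 0.915) and -0.017 for CANX (adjusted p = 0.303), and the KD increase of CANX was 0.024 (adjusted p = 0.0904). In the other direction, CALR in OE was at 0.061 with the block median of all genes removed (adjusted p = 1.05e-05) and at 0.095 with that of well-expressed genes removed (adjusted p = 2.98e-09). Without the variance trend CALR in OE (adjusted p = 0.147), CANX in OE (adjusted p = 0.210) and CANX in KD (adjusted p = 0.0539) were not called. The difference of CALR between OE and KD was not called after the block correction chosen after seeing the data (-0.020, adjusted p = 0.0935). CALR in OE also lost its call without OE replicate 3 (0.027, adjusted p = 0.0589). CANX in OE lost it without PAR replicate 1 (0.030, adjusted p = 0.0625), PAR replicate 3 (0.031, adjusted p = 0.0520), OE replicate 1 (0.025, adjusted p = 0.111) or OE replicate 2 (0.028, adjusted p = 0.0937).

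The disulfide isomerases PDIA3, PDIA4 and PDIA6 were called higher in both engineered groups. PDIA4 (ENSG00000155660, chromosome 7) had rlog values of 14.06, 14.04 and 14.02 in parental, 14.28, 14.29 and 14.31 in KD and 14.11, 14.10 and 14.16 in OE. The 3 groups were separate, and KD was highest. PDIA4 rose by 0.25 in KD (SE 0.0141, adjusted p = 1.76e-16), or 19.3% on the linear scale, and by 0.082 in OE (adjusted p = 1.65e-05), and OE was below KD by -0.17 (adjusted p = 4.35e-12). The median of its 66 neighbours was -0.019 in KD and -0.035 in OE, and only 9 neighbours in KD had a higher difference than PDIA4.

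PDIA6 (ENSG00000143870, chromosome 2) had 13.46, 13.47 and 13.45 in parental, 13.62, 13.61 and 13.61 in KD and 13.60, 13.61 and 13.62 in OE. Both engineered groups were above all parental values and overlapped each other. The increase was 0.15 in KD (SE 0.0130, adjusted p = 9.86e-12) and 0.15 in OE (adjusted p = 8.39e-11), and OE minus KD was -0.0052 (95% interval -0.032 to 0.021, adjusted p = 0.780). Exons of ATP6V1C2 overlap 25.2% of the PDIA6 exonic length. The library kit does not mark the strand, so reads there could belong to either gene. PDIA3 (ENSG00000167004, chromosome 15), which works with the lectin chaperones on glycoproteins, stood at 13.80, 13.81 and 13.77 in parental, 13.89, 13.86 and 13.87 in KD and 13.94, 13.91 and 13.93 in OE. Here OE was the highest group, with increases of 0.13 in OE (SE 0.0135, adjusted p = 1.85e-09) and 0.080 in KD (adjusted p = 5.93e-06). OE exceeded KD by 0.051 (adjusted p = 0.00216), a call that was lost after quantile normalization (0.026, adjusted p = 0.102) and without the variance trend (adjusted p = 0.0529).

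XBP1 (ENSG00000100219, chr22:28794555-28800597, minus strand) had rlog values of 11.37, 11.38 and 11.39 in parental, 11.28, 11.27 and 11.26 in KD and 11.32, 11.28 and 11.29 in OE. All 6 engineered libraries lay below all 3 parental libraries, and KD lay below OE. XBP1 was lower in KD by -0.11 (SE 0.0201, adjusted p = 3.11e-05) and in OE by -0.080 (adjusted p = 0.00177), and OE minus KD was 0.026 (95% interval -0.015 to 0.067, adjusted p = 0.306). The median of its 122 neighbours was -0.029 in KD and -0.047 in OE. With the block median of well-expressed genes removed, the KD difference was -0.10 (adjusted p = 1.13e-04) and the OE difference -0.039 (adjusted p = 0.143, where the median of all genes left -0.065 and adjusted p = 0.00968, against 5.6e-04 as the lowest over its alternatives). These gene-level values add up spliced and unspliced XBP1 mRNA, so the activity of IRE1 is not read from them.

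Counted over the 10 members, 7 were called higher and 2 lower under the KD label, where 26.9% of all genes were called higher and 26.9% lower, and 36.4% and 39.4% of well-expressed genes. HSPA5 and XBP1 were the 2 lower genes and DNAJB9 was not called. The groups of KD and parental did not overlap in 9 of the 10 members, against 59.2% of all genes and 78.4% of well-expressed genes, to which all 10 members belong. In the libraries labelled OE 5 members were called higher (CALR, CANX, PDIA3, PDIA4 and PDIA6) and 3 lower (HSPA5, XBP1 and DNAJB9), against 16.9% and 18.0% of all genes and 25.2% and 31.5% of well-expressed genes. There 6 members did not overlap parental, against 43.2% of all genes and 63.9% of well-expressed genes. Between the engineered groups, OE was higher than KD in 2 members (HSPA5 and PDIA3) and lower in 4 (CALR, PDIA4, HYOU1 and DNAJB11), against 23.5% and 23.8% of all genes and 33.3% and 34.9% of well-expressed genes. The HSPA5, CALR and DNAJB11 calls among these were lost after the block correction chosen after seeing the data, and CANX (-0.030), PDIA6 (-0.032) and XBP1 (0.061) gained a call. As deposited, 7 members did not overlap, against 54.1% of all genes and 72.4% of well-expressed genes. The comparisons with parental share the 3 parental libraries, so each is given by its own values. The median difference of the members was 0.091 in KD and 0.032 in OE, and that of all genes was -5.1e-04 and 3.9e-04. Since 0 members moved by more than 0.5 in any comparison, all these differences are small beside a doubling, which is 1 on this scale.

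Taken back from the log scale, the opposite moves of the members nearly cancelled. The summed linear level of the 10 genes was between 173675 and 175439 in the parental libraries, between 175973 and 176306 in KD and between 175936 and 178003 in OE. HSPA5 alone went from between 42102 and 42907 in parental to between 33462 and 33948 in KD, while PDIA4 went from between 16605 and 17065 to between 19880 and 20318. The total of all genes on this scale was between 34928732 and 35211774 per library.

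Levels of different genes were compared after subtracting the log2 of the exonic length in kb, taken over all annotated exons of a gene. In the parental libraries the order was CALR (13.70), HSPA5 (12.67), PDIA4 (12.32), PDIA6 (11.43), CANX (11.34), HYOU1 (10.83), PDIA3 (10.24), XBP1 (9.78), DNAJB9 (7.74) and DNAJB11 (6.95). The SD between parental libraries was 0.0540 for DNAJB9 and between 0.0078 and 0.0264 for the others, so every neighbouring pair in this order was farther apart than its spread, the closest being PDIA6 and CANX. In the libraries labelled KD HSPA5 (12.33) came after PDIA4 (12.57), while under OE HSPA5 (12.56) remained before PDIA4 (12.40). These levels depend on the annotated exon length, which need not be the length transcribed in these cells.

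**Figure D4:**
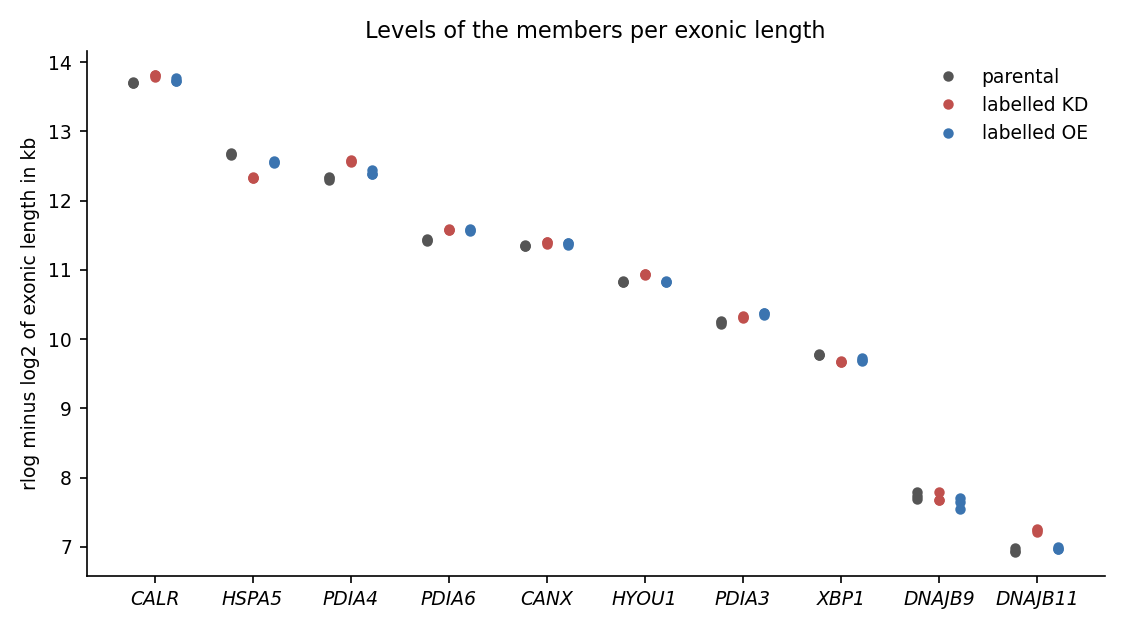
Level of each member per exonic length (vertical axis, rlog minus log2 of exonic kb) in the 9 libraries, ordered by the parental mean. HSPA5 lies above PDIA4 in the parental and OE libraries and below it in the libraries labelled KD.

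Other ER folding genes were taken from a list of 31, of which 29 had values. In KD 14 were called higher and 7 lower, and in OE 9 were higher and 7 lower, with medians of 0.029 and 0.016. These are 48.3% and 24.1% of the list in KD and 31.0% and 24.1% in OE, beside 36.4% and 39.4%, and 25.2% and 31.5%, of well-expressed genes. HSP90B1 (GRP94), the HSP90 of the ER, had values of 14.09, 14.12 and 14.11 in parental, 14.41, 14.36 and 14.38 in KD and 14.28, 14.24 and 14.25 in OE. It rose by 0.28 in KD (SE 0.0134, adjusted p = 5.75e-18) and by 0.15 in OE (adjusted p = 1.09e-10) without overlap, and its 97 neighbours on chromosome 12 had a median of -0.015 in KD. ERO1B, an oxidase that keeps disulfide isomerases active, had the largest increase of the list in KD, 1.19 (adjusted p = 4.87e-27), from 10.22, 10.13 and 10.21 to 11.38, 11.36 and 11.37, and was at 10.29, 10.22 and 10.22 in OE. UGGT2, which belongs to the enzymes that mark misfolded glycoproteins, rose by 0.25 in KD.

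Lower in KD were ERP44 (-0.33), which retains proteins through thiol groups, the secreted ER stress protein MANF (-0.31) and the co-chaperone DNAJC3 (-0.15). In OE the largest increases were those of the isomerase PDIA5 (0.21), HSP90B1 and the collagen chaperone SERPINH1 (0.15), and the decreases those of the thioredoxin-related TMX4 (-0.35), SDF2 (-0.10) and SDF2L1 (-0.091). ERP44 lies on chromosome 9, as HSPA5 does, and MANF on chromosome 3. Both were still called in KD with the block median of all genes removed, at -0.20 (adjusted p = 7.81e-10) and -0.12 (adjusted p = 1.81e-06). That median may understate the shift around them. After the block correction chosen after seeing the data their KD differences were 0.019 (adjusted p = 0.480) and -0.0030 (adjusted p = 0.898), that of DNAJC3 was -0.26 (adjusted p = 1.12e-13), and the OE difference of TMX4 was -0.21 (adjusted p = 7.8e-13). The call of SDF2L1 (adjusted p = 0.0408) was lost without any of PAR replicates 1 to 3 or without OE replicates 1 or 2, with values between -0.10 and -0.069. It was also lost after quantile normalization (-0.082, adjusted p = 0.0886), without the variance trend (adjusted p = 0.132), and after the block median of all genes (-0.076, adjusted p = 0.0874) or of well-expressed genes (-0.050, adjusted p = 0.239) was removed.

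The genes of unfolded protein response signalling had a median below 0, unlike the members. Of 20 listed genes 19 had values, and 7 were higher and 10 lower in KD, against 5 and 8 in OE, with medians of -0.064 and -0.015. The higher share in KD was 36.8%, near the 36.4% of well-expressed genes, and the lower share 52.6% against 39.4%. In OE the shares were 26.3% and 42.1%, against 25.2% and 31.5%. The transcripts of the sensors were higher in KD. ERN1, which encodes IRE1, had values of 8.46, 8.34 and 8.50 in parental and 8.70, 8.73 and 8.60 in KD, a rise of 0.24 (adjusted p = 4.19e-06). EIF2AK3, which encodes PERK, rose by 0.14 in KD (adjusted p = 4.6e-04) and by 0.10 in OE (adjusted p = 0.0176), and ATF6 by 0.057 (adjusted p = 0.00809) and 0.054 (adjusted p = 0.0197). The ERN1 difference in OE was 0.097 (adjusted p = 0.0620).

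ATF6 in KD was not called without KD replicate 1 (0.044, adjusted p = 0.0657), nor with the block median of all genes (0.035, adjusted p = 0.0979) or of well-expressed genes (0.029, adjusted p = 0.178) removed. In OE it was not called without the variance trend (adjusted p = 0.0514) nor without PAR replicate 2 (0.047, adjusted p = 0.0823), OE replicate 2 (0.054, adjusted p = 0.0514) or OE replicate 3 (0.050, adjusted p = 0.0559). EIF2AK3 in OE lost its call without PAR replicate 3 (0.096, adjusted p = 0.0517) or OE replicate 2 (0.091, adjusted p = 0.0695) and with the block median of well-expressed genes removed (0.073, adjusted p = 0.0896), and ERN1 in OE gained it without PAR replicate 3 (0.13, adjusted p = 0.0251) or OE replicate 1 (0.12, adjusted p = 0.0485) and with either block median removed, over all genes (0.11, adjusted p = 0.0411) or well-expressed genes (0.12, adjusted p = 0.0162). The transcription factors CREB3L2 (0.24) and ATF6B (0.22) rose in KD as well. In OE the site-1 protease gene MBTPS1, whose product cleaves ATF6, rose by 0.10 and ATF6B by 0.087. MBTPS1 had 0.14 in KD, and in OE 0.17 with the block median of well-expressed genes removed (adjusted p = 2.55e-10).

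ATF3, a transcription factor gene of the same list, had values of 9.31, 9.31 and 9.21 in parental, 8.14, 8.12 and 8.20 in KD and 8.86, 8.81 and 8.84 in OE, decreases of -1.12 (adjusted p = 7.41e-23) and -0.44 (adjusted p = 1.01e-11) with no overlap between the 3 groups. CHAC1, a glutathione-degrading enzyme induced through ATF4, was lower in KD by -0.82 (adjusted p = 1.77e-17), from 7.92, 7.88 and 7.87 to 7.05, 7.06 and 7.08, and in OE by -0.24. ATF4 itself was lower by -0.12 in KD (adjusted p = 8.49e-09) and by -0.043 in OE (adjusted p = 0.0172), and the OE call was lost without PAR replicate 1 (-0.038, adjusted p = 0.0757), PAR replicate 2 (-0.034, adjusted p = 0.107) or OE replicate 2 (-0.028, adjusted p = 0.179). It was also lost without the variance trend (adjusted p = 0.164) and with the block median of all genes (-0.028, adjusted p = 0.127) or of well-expressed genes (-0.0013, adjusted p = 0.952) removed. In OE PPP1R15A (-0.33), whose product returns eIF2 to its unphosphorylated form, and TRIB3 (-0.27) were the next decreases after ATF3, and in KD they had -0.28 and -0.19. With the block median of well-expressed genes removed TRIB3 was at -0.12 in OE (adjusted p = 3.89e-05) and -0.052 in KD (adjusted p = 0.0479). TRAF2, an adaptor that binds IRE1, was lower in KD by -0.42 and lies on chromosome 9. With the block median of all genes removed this was -0.19 (adjusted p = 7.13e-09), and with that of well-expressed genes removed -0.074 (adjusted p = 0.00514).

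DDIT3 (CHOP), a factor of prolonged ER stress downstream of PERK, was not called in either group. It had values of 3.66, 3.62 and 3.58 in parental, 3.72, 3.70 and 3.66 in KD and 3.64, 3.74 and 3.73 in OE. Its differences were 0.074 in KD (adjusted p = 0.106) and 0.084 in OE (adjusted p = 0.0945), and the latter was called without OE replicate 1 (0.12, adjusted p = 0.0303). At so low a level rlog values are strongly shrunken, and other genes overlap 39.6% of its exonic length.

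ER-associated degradation returns misfolded proteins to the cytosol. Of 22 genes listed for it 19 had values, and 5 were higher and 11 lower in KD and 2 higher and 9 lower in OE, with medians of -0.083 and -0.052. These are 26.3% and 57.9% of the list in KD and 10.5% and 47.4% in OE, where well-expressed genes had 36.4% and 39.4%, and 25.2% and 31.5%. SEL1L, the partner of the ubiquitin ligase SYVN1, was higher in KD (0.22) and in OE (0.098), and FAF2 (0.19) rose in KD. MAN1B1 (-0.30) and EDEM2 (-0.27), which trim or read mannose on misfolded glycoproteins, and UFD1 (-0.25) were the largest decreases in KD. In OE UBXN4 rose by 0.078, and NPLOC4 (-0.23), SYVN1 (-0.17) and VCP (-0.17) fell, of which VCP and NPLOC4 belong to the complex that extracts proteins from the ER membrane. With the block median of all genes removed MAN1B1 (-0.068, adjusted p = 0.00624) and EDEM2 (-0.15, adjusted p = 1.42e-05) were still lower in KD. Here too that median may understate the shift around them. After the block correction chosen after seeing the data they changed sign in KD, with 0.052 (adjusted p = 0.0357) and 0.067 (adjusted p = 0.0344), and VCP in OE was at -0.071 (adjusted p = 7.88e-06). In KD as deposited NPLOC4 (-0.23) and VCP (-0.13) were lower too, and SYVN1 was not called (0.034).

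The genes of ER translocation gave no common direction across the comparisons with parental. Of 18 listed 17 had values, with 2 higher and 7 lower in KD and 7 higher and 3 lower in OE, and medians of -0.0069 and 0.038. The shares were 11.8% and 41.2% in KD and 41.2% and 17.6% in OE. Well-expressed genes had 36.4% and 39.4% in KD and 25.2% and 31.5% in OE. Between the engineered groups, OE was above KD in 10 of the 17 and below it in 2. These are 58.8% and 11.8%, against 33.3% and 34.9% of well-expressed genes. SSR4 rose in both groups (0.19 and 0.11), as did SEC63 (0.082 and 0.097), and SEC61G (0.17) and SEC62 (0.10) rose in OE. SEC61B, a subunit of the channel encoded on chromosome 9, was lower in KD by -0.43, followed by the signal peptidase subunit SPCS1 (-0.36) and the receptor subunit SRPRB (-0.21), both on chromosome 3. With the block median of all genes removed SEC61B was at -0.26 (adjusted p = 2.09e-10) and SPCS1 at -0.17 (adjusted p = 8.84e-10) in KD. Again the median of all genes may understate the shift around them. With that of well-expressed genes removed SEC61B was at -0.082 (adjusted p = 0.00889) and SPCS1 at -0.053 (adjusted p = 0.00686) in KD. Exons of other genes overlap 56.6% of SPCS1. In OE SRPRA (-0.094, and -0.037 with that median removed), SEC61B (-0.075) and SRPRB (-0.075) were lower. The call of SEC61B was lost there without PAR replicate 1 (-0.069, adjusted p = 0.0722), PAR replicate 2 (-0.070, adjusted p = 0.0656) or OE replicate 2 (-0.061, adjusted p = 0.109), after quantile normalization (-0.058, adjusted p = 0.0835), without the variance trend (adjusted p = 0.0664), and after the block median of all genes (-0.063, adjusted p = 0.0515) or of well-expressed genes (-0.013, adjusted p = 0.744) was removed. That of SRPRB was lost without PAR replicate 2 (-0.058, adjusted p = 0.0629).

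**Figure D5:**
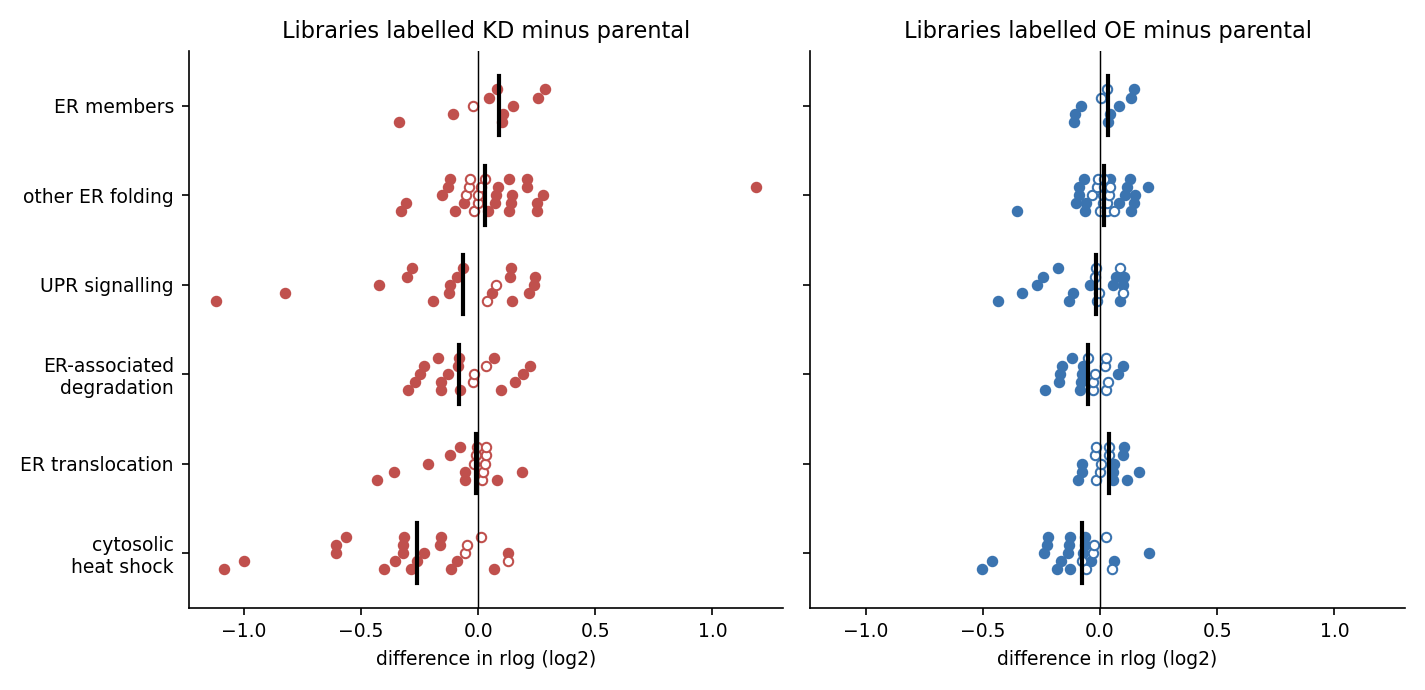
Differences from parental (horizontal axis, rlog, log2) of each gene of 6 lists, with the libraries labelled KD on the left and those labelled OE on the right. Filled points were called, open points were not, and black bars are medians. The ER members have medians of 0.091 and 0.032 and the cytosolic heat shock genes of -0.26 and -0.077.

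Of 24 listed cytosolic heat shock genes 23 had values, and 17 were called lower and 2 higher in KD, and 15 lower and 2 higher in OE. The lower shares were 73.9% in KD and 65.2% in OE, against 39.4% and 31.5% of well-expressed genes. Their median difference was -0.26 in KD and -0.077 in OE, against 0.091 and 0.032 for the ER members. OE was above KD in 17 of the 23 genes (73.9%, against 33.3% of well-expressed genes) and below it in 1 by the same test. Within each library the median of the list relative to the parental means was between -0.0081 and 0.0031 in parental, between -0.29 and -0.23 in KD and between -0.13 and -0.089 in OE, while that of the ER members was between 0.087 and 0.092 in KD and between 0.024 and 0.033 in OE. In every library labelled KD or OE the medians of the lists thus lay on opposite sides of 0. Of the members, HSPA5 and XBP1 were below their parental means in all 6 of these libraries, DNAJB9 in all but KD replicate 2, and HYOU1 in OE replicate 1. Under quantile normalization the median of the ER members was 0.081 in KD and 0.0051 in OE.

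HSPA1A, the stress-inducible cytosolic HSP70, had the largest decrease of the list in KD. Its values were 11.09, 11.00 and 11.09 in parental, 9.99, 9.95 and 9.998 in KD and 10.59, 10.57 and 10.65 in OE, so the 3 groups were apart by far more than their spread. The differences were -1.08 in KD (adjusted p = 1.17e-25) and -0.46 in OE (adjusted p = 3.74e-15). HSPA1B had -0.998 and -0.50, the latter the largest decrease of the list in OE, and it is a nearly identical copy of HSPA1A, reads of the pair could be split between them, and other genes overlap 36.6% of HSPA1B. HSPH1, the cytosolic counterpart of HYOU1, had 14.17, 14.19 and 14.20 in parental, 13.58, 13.58 and 13.59 in KD and 13.95, 13.96 and 13.95 in OE, decreases of -0.60 and -0.24 where HYOU1 had 0.11 and 0.0043.

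CHORDC1, an HSP90 co-chaperone, was lower by -0.61 in KD and by -0.13 in OE. Against the list, BAG3 (0.13) and HSPB1 (0.067) were higher in KD, and HSPB8 (0.21) and HSPB1 (0.060) in OE. HSPB8 was lower in KD (-0.29) and BAG3 in OE (-0.064), the latter a call lost after quantile normalization (-0.048, adjusted p = 0.0629), without the variance trend (adjusted p = 0.0848), or without PAR replicate 3 (-0.046, adjusted p = 0.0898) or OE replicate 1 (-0.052, adjusted p = 0.0602). HSPB1 in KD was not called without PAR replicate 1 (0.042, adjusted p = 0.170), PAR replicate 2 (0.060, adjusted p = 0.0602) or KD replicate 3 (0.040, adjusted p = 0.176), nor without the variance trend (adjusted p = 0.127). In OE its call was lost without the trend (adjusted p = 0.215) and without PAR replicate 1 (0.035, adjusted p = 0.317), PAR replicate 2 (0.054, adjusted p = 0.130), OE replicate 1 (0.062, adjusted p = 0.0751), OE replicate 3 (0.045, adjusted p = 0.189) or KD replicate 2 (0.060, adjusted p = 0.0505).

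Among all other well-expressed genes, the 5 closest to HSPA5 over the 9 libraries, each centred on its own mean, were SMC5, G3BP1, HSPD1, UBE3C and ASXL1. Their root mean square differences from HSPA5 were between 0.0123 and 0.0169 rlog units. SMC5 lies on chromosome 9 and the others on chromosomes 5, 2, 7 and 20. HSPD1, the mitochondrial HSP60 chaperone, had differences of -0.33 in KD and -0.076 in OE. Of the other members XBP1 was nearest, with a root mean square difference of 0.104 and rank 2392 of 9955 genes, and DNAJB11 was the most distant with 0.267 and rank 8851. Among the 289 genes whose rlog averaged 14 or more, a level chosen after seeing the data, 21 had a lower difference in KD than HSPA5.

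The genes of the ER lists together, members included, numbered 94, of which 35 were higher and 37 lower in KD and 28 higher and 30 lower in OE. These shares, 37.2% and 39.4% in KD and 29.8% and 31.9% in OE, are near those of well-expressed genes (36.4% and 39.4%, and 25.2% and 31.5%). Chromosome 9 held 7 of them, and 6 were lower in KD (ERP44, HSPA5, MAN1B1, SEC61B, TRAF2 and VCP) and 0 higher, and in OE also 6 were lower, with CREB3 in place of MAN1B1, and 0 higher. On that chromosome 72.3% of 408 well-expressed genes were called lower in KD, with a median difference of -0.29, and 55.6% in OE, with a median of -0.075. Chromosome 20 was the next lowest by its median in KD, with 58.1% of 272 such genes lower and a median of -0.11, and the lowest in OE, with 61.4% and -0.099. Of the 3 genes of the ER lists on it EDEM2 and TRIB3 were lower in KD, TMX4 and TRIB3 in OE, and 0 were higher. Without the genes of chromosome 9, 35 of 87 were higher and 31 lower in KD, and 28 were higher and 24 lower in OE. The share of all genes off chromosome 9 was not computed, so these counts are not read as a tilt of the ER genes. Of the chromosome 9 genes, ERP44 was at -0.063 in OE (adjusted p = 0.0174). That call was lost after quantile normalization (-0.038) and without PAR replicate 2 (-0.054) or OE replicate 2 (-0.060). It was also lost with the block median of all genes (-0.046) or of well-expressed genes (-0.0018) removed. With the latter removed CREB3 in OE was at -0.015 and not called (adjusted p = 0.672). This grouping by chromosome was made after the values were seen.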

How the data were processed

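RNA of 9 libraries was sequenced on TruSeq v2 libraries, which do not mark the strand. The submitters' notes name cutadapt, HISAT2 with GRCh38, featureCounts of Subread and DESeq2, without versions, and genes with few counts in total had been removed. The deposited values are log2 rlog values made by the authors with DESeq2, so the depth reached in each library cannot be read from them, and 3 empty columns were not used. Symbols, positions and exonic lengths came from GENCODE release 44 (22195 of 22290 identifiers matched), which need not be the annotation the authors used. Group differences were fitted in all 9 libraries with limma 3.58.1 (R 4.3.3), letting the variance follow the mean level, no filter and no covariate, and the fit was tested on simulated data for KD against parental. P-values are two-sided with Benjamini-Hochberg adjustment over all genes within each comparison. Beside the members, the genes named are HSP90B1, ATF6, ERN1, EIF2AK3, ATF4, DDIT3, TRAP1 and, per list and comparison with parental, up to 3 called genes with the largest increases and 3 with the largest decreases, of which 1 is not reported here. Further genes appear only as cell markers or for a motif, a position or likeness to HSPA5. Values were recomputed under other scalings, filters, fits and left-out libraries. Members and lists were chosen with earlier results of these data known. TXNDC5, FKBP14, PPP1R15B, DERL3, OS9, ERLEC1, SSR2, FKBP4, DBH, CDH1 and KRT19 were listed and not analysed here. Of 8 epithelial markers 6 had values, with 2 higher and 1 lower in KD and 1 higher and 3 lower in OE. Of all genes 26.9% were higher and 26.9% lower in KD, and 16.9% and 18.0% in OE.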

Additional observations from a re-analysis of the deposited data

How the results depend on the processing

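Over 60 named genes, 3 comparisons and the alternatives, 2923 of 3057 values kept their side of the threshold and, where called, their direction. Of the others, 94 lost a call, 24 gained a call and 16 changed sign with a call before or after. Values called in neither setting count as kept even where their sign changed, and the turns named below leave them out. With an absolute difference over 0.5 also required, the calls over all genes were 1110 in KD, 200 in OE and 793 between OE and KD, those among the ER members were 0, 0 and 0, and those among the cytosolic heat shock genes were 5, 1 and 1. Without the variance trend limma called 8 members in KD in place of 9 (CANX lost), 5 in OE in place of 8 (CALR, CANX and DNAJB9 lost) and 5 between OE and KD in place of 6 (PDIA3 lost). Under the other alternatives without the size rule the member counts ran from 7 to 9 in KD, from 6 to 8 in OE and from 6 to 7 between OE and KD. Quantile normalization turned CALR (-0.0019) and CANX (-0.017) in OE. Removing the 20-Mb block median of well-expressed genes (averaging 8 or more), which was chosen after seeing the data, turned HSPA5 (0.011), ERP44 (0.019), MAN1B1 (0.052), EDEM2 (0.067) and SRPRA (0.022) in KD, MAN1B1 (0.072) and EDEM2 (0.090) in OE, and HSPA5 (-0.018), ERP44 (-0.020), MANF (-0.055), TRAF2 (-0.0047), PPP1R15A (0.0033) and VCP (0.082) between OE and KD. The planned block median over all genes turned VCP (0.0092) between OE and KD. The cause of these changes was not tested. The deviations of same-numbered libraries had correlations between -0.046 and 0.10, and those of differently numbered ones between -0.10 and 0.057. Same-numbered KD and OE libraries were at 0.086, 0.016 and 0.10. The numbers were not taken to pair the libraries. A replicate block called 12015 genes in KD, 7854 in OE and 10623 between OE and KD, against 11980, 7764 and 10552 without it, left 9, 8 and 6 members called, and changed 0 calls of the named genes. The depth reached in each library, which these values do not give, and the shrinkage of rlog limit what low genes such as DDIT3 can show.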
